A study of Mus musculus with 12 samples.

Results

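The expression of interleukin 4 (Il4), of the chains of its receptor (Il4ra, Il13ra1 and Il2rg) and of its transcription factor Stat6 was examined in MIN6, a mouse tumour line of pancreatic β cells that were transformed by an SV40 T antigen transgene. Members were all probe sets whose platform annotation gives exactly 1 of these 5 gene symbols, together with the Il4 control probe set present on each chip. Of the 5 genes, 4 had a probe set, out of 15964 genes with a probe set in the series, and Il2rg was not analysed here. The genes were selected on their intensities in high-passage parental cells against the other populations, so these differences are a description and no test was made of them.

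Total RNA was taken from 4 populations, all cultured in the same medium. Pr-HP were parental MIN6 cells passaged 35 to 40 times, and Pr-LP were parental cells passaged 17 to 20 times. C4-HP and C4-LP were cells of clone 4, passaged 40 to 50 times and 17 to 20 times. The clone 4 cultures descend from a single clone, which was picked out of the parental line at low passage after dilution, so they model 1 founder. The study set them side by side to look for genes tied to glucose-stimulated insulin secretion, which MIN6 cells lose in long culture. In its secretion assays Pr-LP, C4-LP and C4-HP, which it calls responders, raised insulin secretion with glucose, and Pr-HP did not. Biotin-labelled RNA was put on Affymetrix U74 version 2 arrays, which come as 3 chips (A to C), with 1 array for each population and chip and 12 arrays in all. There are therefore no replicate cultures, and whatever was particular to the single Pr-HP culture cannot be told apart from its passage number.

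Il4 is a cytokine made mainly by activated T helper cells, mast cells and basophils. It binds Il4ra, which then pairs with the common γ chain Il2rg (type I receptor, mostly on blood cells) or with Il13ra1 (type II receptor, also on non-blood cells, and shared with Il13). Janus kinases bound to these chains phosphorylate Stat6, which enters the nucleus and activates genes that include Il4ra itself.

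In the mouse assembly GRCm38.p6, Il4 lies at chr11:53612460-53618665, Il4ra at chr7:125552271-125579474, Il13ra1 at chrX:36112108-36171262 and Stat6 at chr10:127642955-127660987. The 250 bases before the start of the 3 genes that were past 2-fold in Pr-HP are shown because these genes were high in the same population. They are from RefSeq, are written 5′ to 3′ on the strand of the gene, and lie at chr11:53618666-53618915 (minus strand) for Il4, chr7:125552021-125552270 (plus strand) for Il4ra and chrX:36111858-36112107 (plus strand) for Il13ra1. Capitals mark the STAT6 motif TTCNNNNGAA and the Maf site TGCTGA, searched on both strands.
Il4: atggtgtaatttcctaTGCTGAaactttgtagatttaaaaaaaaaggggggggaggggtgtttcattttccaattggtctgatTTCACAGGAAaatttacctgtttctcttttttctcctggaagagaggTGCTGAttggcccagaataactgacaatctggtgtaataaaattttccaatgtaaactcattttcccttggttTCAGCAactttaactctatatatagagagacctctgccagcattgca
Il4ra: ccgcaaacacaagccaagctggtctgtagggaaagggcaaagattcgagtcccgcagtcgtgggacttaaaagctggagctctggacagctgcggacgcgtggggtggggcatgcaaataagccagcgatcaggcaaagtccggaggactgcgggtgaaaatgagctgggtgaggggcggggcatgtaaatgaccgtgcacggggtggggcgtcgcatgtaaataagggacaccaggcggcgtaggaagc
Il13ra1: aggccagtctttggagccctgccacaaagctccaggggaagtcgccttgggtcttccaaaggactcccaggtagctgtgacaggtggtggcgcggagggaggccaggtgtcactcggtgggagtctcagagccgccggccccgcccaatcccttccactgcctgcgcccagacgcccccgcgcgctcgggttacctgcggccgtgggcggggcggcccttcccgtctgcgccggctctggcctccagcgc

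The Il4 window held 1 STAT6 motif, TTCACAGGAA, 158 to 167 bases before the start, and 3 Maf sites whose near ends lie 42, 115 and 229 bases before it. It also held 5 copies of the NFAT core GGAAA, searched on both strands, 1 of which overlaps the STAT6 motif. Neither the STAT6 motif nor the Maf site was found in the Il4ra or the Il13ra1 window, and the NFAT core was found 1 time in that of Il4ra and 0 times in that of Il13ra1. Among 32851 RefSeq windows of the same length, 5.85% held the STAT6 motif, 16.1% the Maf site and 55.6% the NFAT core. The windows differ in composition, with 37.6% G and C in Il4, 59.6% in Il4ra and 70.8% in Il13ra1. These matches describe letters and do not show that a factor was bound.

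The deposited values are intensities on a linear scale in units of the authors' software. The 20th percentile of each chip served as a floor (67.3 units for chip A, 58.6 for chip B, 29.1 for chip C), below which values have no order and against which folds are given as lower bounds. A probe set was compared if at least 1 of its 4 arrays exceeded the chip's 40th percentile (153, 122 and 66.5 units), which kept 23340 probe sets, 5 of the 9 member probe sets among them. Array medians were nearly equal within a chip, at 213.7 to 215.5 units for chip A, 161.9 to 162.7 for chip B and 92.8 to 93.2 for chip C. The Gapdh control ratio (3′ over 5′ probe set, lower where RNA is more intact) had its lowest value in Pr-HP, at 0.867 for chip A, 0.953 for chip B and 1.16 for chip C, against 0.968 to 1.31 in the other populations. For β-actin, Pr-HP had the lowest ratio of the 4 populations on 2 chips, 1.15 on A and 1.28 on B, but on chip C its 1.34 lay above the ratio of C4-LP. The technical spread was taken from 44 control probe sets found on all 3 chips with every value above the floor. The Il4 control is not among them. Over these 44, the log2 difference between Pr-HP and the mean of the other 3 populations had a median SD of 0.075 over the chips. This median SD was used as the technical spread. It was 0.111 for Pr-HP against Pr-LP, 0.053 for C4-HP against C4-LP, 0.110 for C4-LP against Pr-LP and 0.105 for C4-HP against Pr-HP.

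By 2 of its 4 probe sets, the ligand Il4 was well above the floor in Pr-HP and below it in the other 3 populations. The chip A probe set 92286_g_at read 282 units in Pr-HP, against 55.6 in C4-HP, 45.9 in C4-LP and 43.5 in Pr-LP. Probe set 92283_s_at read 171 units in Pr-HP, against 20.4 in C4-HP, 15.4 in C4-LP and 15.9 in Pr-LP. Pr-HP stood alone in both, at least 4.19-fold higher by the first probe set and at least 2.54-fold higher by the second. In RNA of whole cultures, fewer cells that express a gene and less RNA per cell cannot be told apart. A probe set of chip A that is below the floor in the other 3 populations passed the filter only if Pr-HP was at least 2.27-fold above the floor, so being past 2-fold was fixed for both of these by the filter. In all, 8 tested probe sets of chip A had this pattern. With the floor raised to the 40th percentile, both came within 2-fold, at log2 0.89 and 0.16.

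The remaining pair of Il4 probe sets did not pass the filter. Probe set 92285_at read 70.0 units in Pr-HP, just above the floor, against 58.1 in C4-HP, 60.7 in C4-LP and 65.7 in Pr-LP. Probe set 92284_r_at read 34.5 units in Pr-HP, against 37.6 in C4-HP, 35.9 in C4-LP and 36.7 in Pr-LP, all below the floor. The Il4 signal of Pr-HP was thus carried by 2 of 4 Il4 probe sets. The suffixes g, s and r in these names mark probe sets that share probes with related sequences or were designed under relaxed rules.

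**Figure D1:**
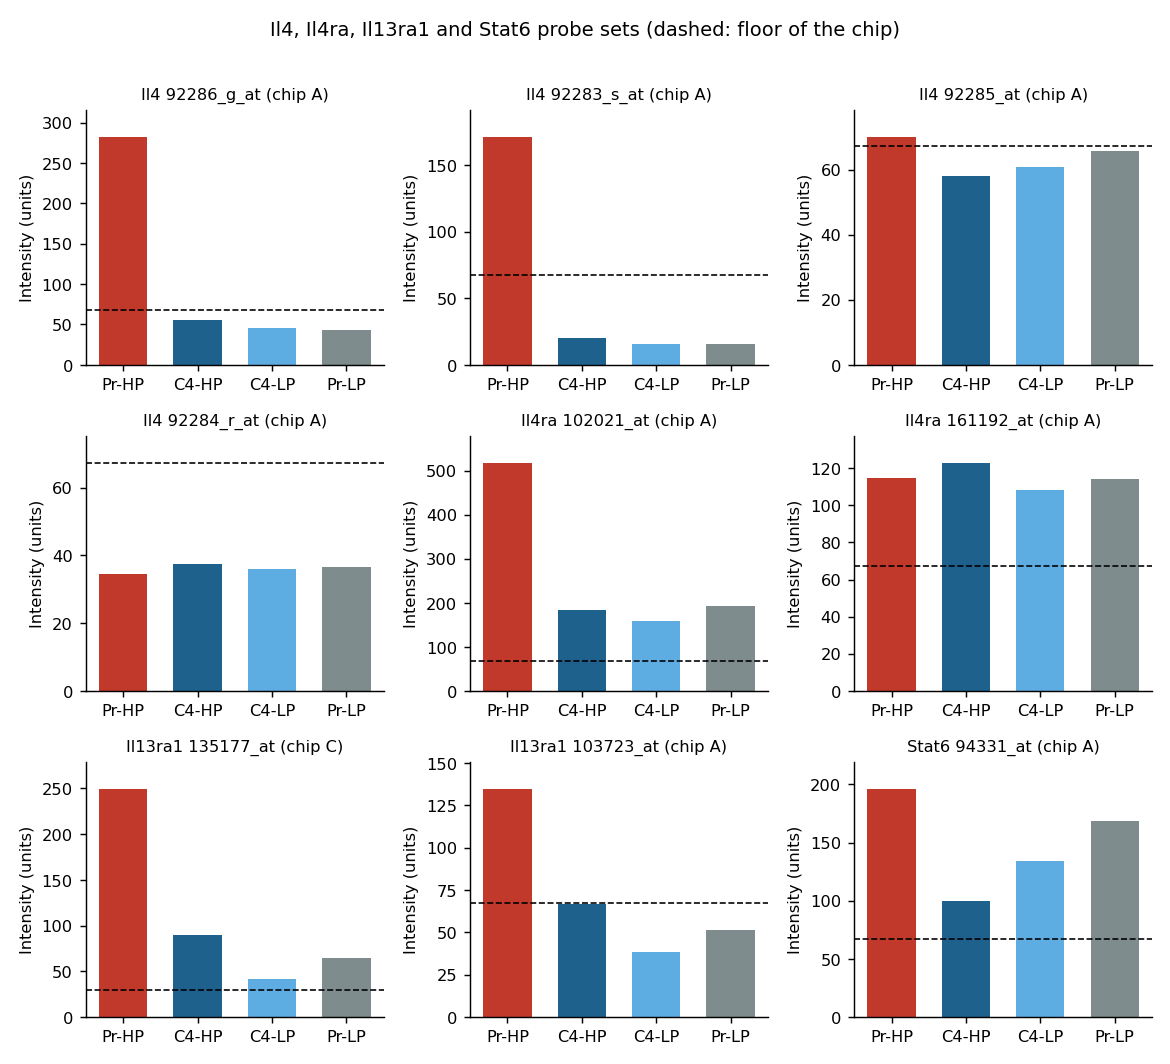
Intensity (units, linear axis from 0) of the 9 probe sets of Il4, Il4ra, Il13ra1 and Stat6 in Pr-HP, C4-HP, C4-LP and Pr-LP, 1 array per bar, with the floor of the chip as a dashed line. Pr-HP is the highest bar in 7 of 9 panels, and the Il4 probe sets 92286_g_at and 92283_s_at exceed the floor in Pr-HP alone.

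The Il4 control probe set, which Affymetrix placed on every chip, gave a reading of the same gene on 3 separate arrays of each population. On chip A it read 165 units in Pr-HP, against 29.3 in C4-HP, 25.6 in C4-LP and 25.0 in Pr-LP. On chip B it read 219 units in Pr-HP, against 32.6 in C4-HP, 23.9 in C4-LP and 21.5 in Pr-LP. On chip C it read 282 units in Pr-HP, against 38.6 in C4-HP, 31.7 in C4-LP and 32.2 in Pr-LP. Pr-HP was the high population on all 3 chips. The other populations were below the floor on chips A and B, which gives at least 2.45-fold and at least 3.73-fold, and just above it on chip C, where the ratio was 8.25-fold (log2 3.05). The chip C readings of the other populations were under the 40th percentile, and with the floor raised to it the log2 difference was 2.08. The sources used here do not say whether the same labelled RNA was put on the 3 chips. The 3 readings are therefore separate hybridisations and cannot be taken as repeats of the culture.

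The control probe sets for other immune genes on the same arrays were close to level. That of Il2 differed between Pr-HP and the mean of the other 3 populations by log2 -0.11, -0.03 and 0.03 on chips A, B and C. That of Il10 differed by 0.03, 0.08 and 0.01. That of Fas, the death receptor, was below the floor in all 4 populations on every chip, at 31.9, 36.2 and 23.9 units in Pr-HP and at 22.4 to 38.2 in the other populations.

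**Figure D2:**
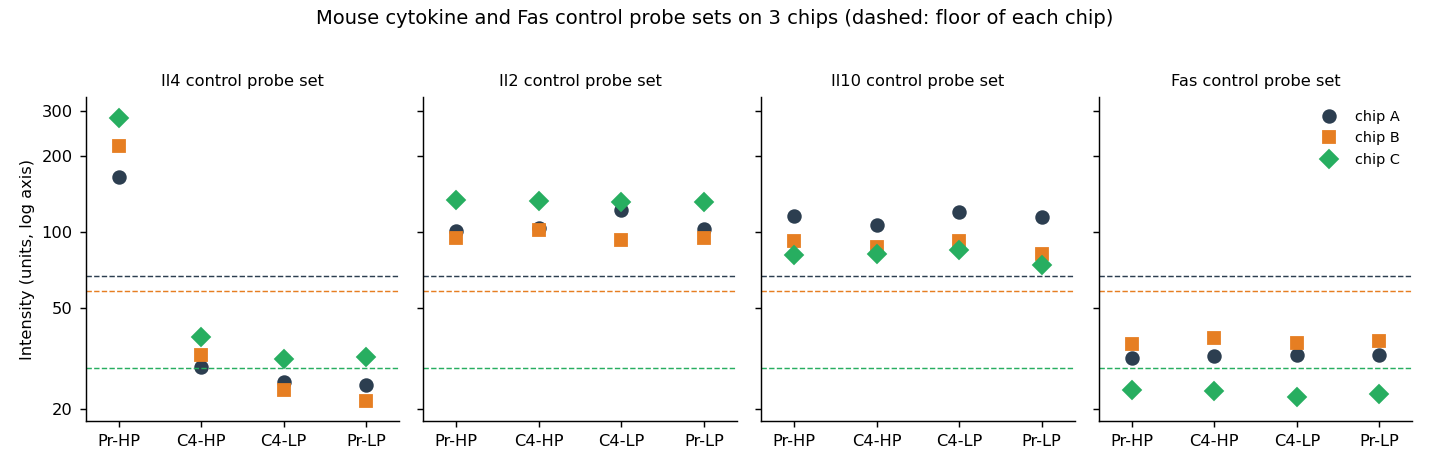
Intensity (units, log axis) of the mouse control probe sets for Il4, Il2, Il10 and Fas in the 4 populations, 1 point per array, coloured by chip with the floor of each chip as a dashed line. The Il4 control lies at 165 to 282 units in Pr-HP and at 21.5 to 38.6 units in the other populations, while the others are close to level.

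Il4ra, the chain that binds Il4, was present above the floor in all populations. Probe set 102021_at read 517 units in Pr-HP, against 183 in C4-HP, 159 in C4-LP and 193 in Pr-LP. Pr-HP was 2.90-fold (log2 1.54) above the mean of the other 3 populations, which was 178 ± 17.5 units (SD, n = 3 populations). The other 3 lay close together, with C4-HP and C4-LP differing by 0.21 and C4-LP and Pr-LP by -0.28 on the log2 scale. The Il4ra probe set 161192_at did not share this pattern. It read 115 units in Pr-HP, against 123 in C4-HP, 108 in C4-LP and 114 in Pr-LP, and did not pass the filter.

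Il13ra1, the chain that completes the type II receptor, was highest in Pr-HP by both of its probe sets. On chip C, 135177_at read 249 units in Pr-HP, against 89.4 in C4-HP, 41.4 in C4-LP and 65.0 in Pr-LP. All values exceeded the floor, and Pr-HP was 3.82-fold (log2 1.93) above a mean of 65.3 ± 24.0 units (SD, n = 3 populations). Here the other populations also differed among themselves, in the order C4-HP, Pr-LP, C4-LP. On chip A, 103723_at read 135 units in Pr-HP, against 66.7 in C4-HP, 38.3 in C4-LP and 51.5 in Pr-LP, with all 3 below the floor. It did not pass the filter, and Pr-HP was at least 2.00-fold higher than the others.

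Stat6, which carries the signal to the nucleus, showed a graded and smaller difference. Its probe set 94331_at read 196 units in Pr-HP, against 99.7 in C4-HP, 134 in C4-LP and 169 in Pr-LP. The order was Pr-HP, Pr-LP, C4-LP, C4-HP, with both parental populations above both clone 4 populations. Pr-HP was 1.46-fold (log2 0.55) above the mean of the other 3, which was 134 ± 34.6 units (SD, n = 3 populations).

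Counted over probe sets, 4 of the 5 tested members, from 3 genes, were past 2-fold higher in Pr-HP than in the mean of the other 3 populations. Over all tested probe sets 1.16% were past 2-fold higher in this comparison, by which the members were chosen. The median log2 difference was 1.54 over the tested members and -0.01 over all tested probe sets.

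Between populations taken in pairs, the difference between Pr-HP and Pr-LP had the same 4 probe sets past 2-fold higher (1.77% of all tested). For the Il4 probe sets among them the filter again fixed this. The difference was 3.83-fold for Il13ra1 135177_at, 2.68-fold for Il4ra 102021_at and 1.16-fold for Stat6. This comparison and that with the mean share the Pr-HP array and the Pr-LP array.

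Between C4-HP and C4-LP, 1 of the 5 tested members was past 2-fold higher, against 0.403% of all tested probe sets. This was Il13ra1 135177_at, which was 2.16-fold higher in C4-HP (log2 1.11), and within 2-fold (log2 0.43) with the floor at the 40th percentile. The technical spread in this comparison was 0.053, a median over control probe sets whose largest SD was 0.186. The chip A probe set of Il13ra1 read 66.7 units in C4-HP and 38.3 in C4-LP, both below the floor. Stat6 ran the other way, at log2 -0.43. Il4 was below the floor in C4-HP and C4-LP by all 4 of its probe sets, and the chip C control differed between them by log2 0.29.

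Between C4-LP and Pr-LP, the populations of equal passage number, 0 of the 5 tested members were past 2-fold, against 1.67% of all tested probe sets past it higher and 0.977% lower. Il13ra1 135177_at differed by log2 -0.65, Stat6 by -0.33 and Il4ra 102021_at by -0.28, each with the lower value in C4-LP. Between C4-HP and Pr-HP, the 4 probe sets of Il4, Il4ra and Il13ra1 were past 2-fold lower (1.47% of all tested), and Stat6 differed by log2 -0.98. For the Il4 probe sets this too was fixed by the filter. Il4ra 102021_at was 2.82-fold and Il13ra1 135177_at 2.79-fold lower in C4-HP.

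**Figure D3:**
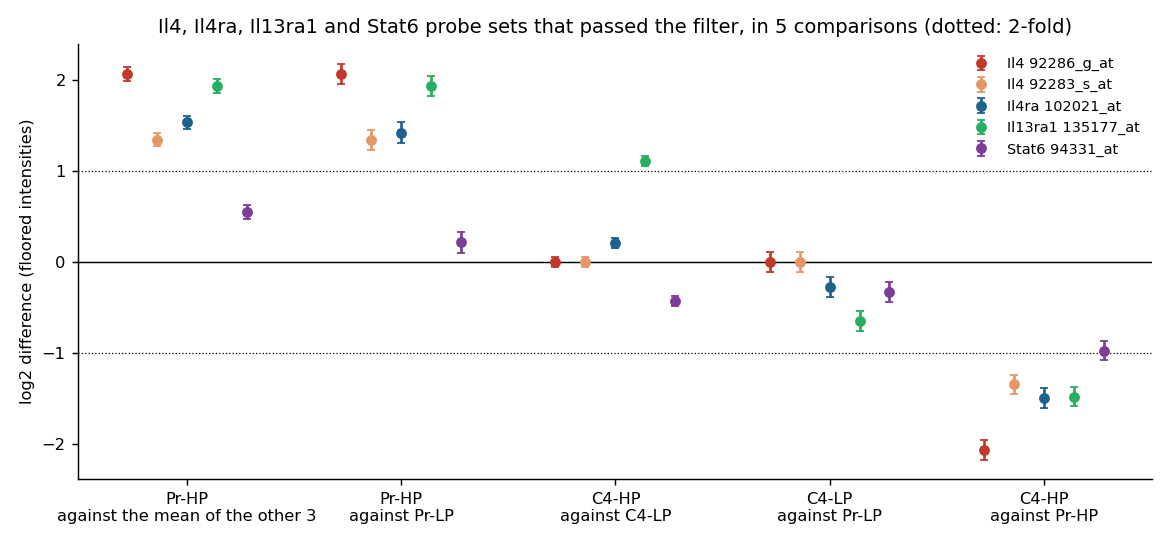
log2 difference of floored intensities for the 5 tested probe sets of Il4, Il4ra, Il13ra1 and Stat6 in 5 comparisons. Points are single differences with 1 array per population, error bars are the technical spread (median SD of 44 control probe sets over 3 chips), dotted lines mark 2-fold, and an Il4 difference of 0 stands for values that are all below the floor. Il13ra1 is past 2-fold between C4-HP and C4-LP, while the differences with Pr-HP hold 4 of 5 points past 2-fold. For the Il4 points among these the filter fixed that outcome. The 44 controls were above the floor on every array, so the bars do not give the spread of the Il4 points.

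Lists of genes around Il4 are small, so counts of 0 in them are near the 1.16% of all tested probe sets past 2-fold higher in Pr-HP, and nothing is read from them about a list. Of 10 related ligand genes, 2 passed the filter and 0 were past 2-fold in any comparison. Il13, which shares the type II receptor with Il4, read 231 units in Pr-HP, against 214 in C4-HP, 223 in C4-LP and 237 in Pr-LP. The Il7 probe set 111968_at, which did not pass the filter, read 110.5 units in Pr-HP, against 78.7 in C4-HP, 75.7 in C4-LP and 69.3 in Pr-LP. Of 11 measured neighbours of Il4 on chromosome 11, 7 passed the filter and 0 were past 2-fold in any comparison. Il13 lies 12.7 kb from Il4 and Kif3a, a kinesin subunit, 8.21 kb from it. Rad50 is a DNA repair gene 30.9 kb away that holds control elements of the Il4 cluster in its introns. It read 268 units in Pr-HP, against 246 in C4-HP, 219 in C4-LP and 236 in Pr-LP (log2 0.20 against the mean). The 3 tested probe sets of Septin8, a cytoskeletal GTPase gene, were at log2 0.25, 0.32 and 0.19 in the same comparison.

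Of the other receptor chains that pair with Il2rg or bind related cytokines, 4 of 7 measured genes passed the filter and 0 were past 2-fold in any comparison. The decoy receptor for Il13, Il13ra2, was below the floor in all 4 populations, at 30.8 units in Pr-HP and 33.1 to 35.6 in the others. The kinases and adaptors that act below the receptor were all 12 tested, and 0 were past 2-fold between Pr-HP and the mean of the other 3. The receptor-bound kinase Jak1 (98911_at) read 545 units in Pr-HP, against 566 in C4-HP, 510 in C4-LP and 592 in Pr-LP. Jak3, the kinase bound to Il2rg, differed from the mean of the other 3 by log2 0.01, and Tyk2 by -0.01 (97573_at). Irs1, an adaptor of the insulin and Il4 receptors, was the 1 gene of this list past 2-fold in a pair of populations. Its probe set 110376_at read 166 units in Pr-HP, against 269 in C4-HP, 235 in C4-LP and 372 in Pr-LP, and was lower in Pr-HP than in Pr-LP by log2 -1.16. The other Irs1 probe set was below the floor in all populations.

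Inhibitors of the pathway gave 0 of 10 tested genes past 2-fold between Pr-HP and the mean of the other 3. Socs5, a suppressor of cytokine signalling that binds Il4ra, was the exception between other populations. Its probe set 163474_at read 795 units in Pr-HP, against 396 in C4-HP, 539 in C4-LP and 566 in Pr-LP, and was lower in C4-HP than in Pr-HP by log2 -1.01, or -0.99 after quantile normalization or trimmed mean scaling. The other tested Socs5 probe sets differed in that comparison by -0.44 and -0.33. Of the other STAT genes, 4 of 5 measured passed the filter and 0 were past 2-fold in any comparison. Stat3 99100_at read 1080 units in Pr-HP, against 552 in C4-HP, 713 in C4-LP and 737 in Pr-LP, the order of Stat6. It was at log2 0.69 against the mean of the other 3, and Stat3 99099_at and 140431_g_at were at 0.36 and -0.01. The Stat5a and Stat5b probe sets ran the other way, at -0.29 to -0.37.

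Genes that Il4 is known to induce in blood cells gave 0 of 10 tested genes past 2-fold between Pr-HP and the mean of the other 3, with a median log2 difference of 0.04 over 13 probe sets. The count was 1 of 10, from Nfil3 102955_at, without C4-LP (log2 1.07) and without C4-HP (log2 1.06). Of the 23 measured genes, 13 did not pass the filter. Arg1, the arginase of Il4-activated macrophages, read 51.4 units in Pr-HP and 48.9 to 54.8 in the others, and Retnla 21.1 in Pr-HP and 18.5 to 20.5 in the others, all below the floor. Nfil3, a basic leucine zipper factor, was past 2-fold between Pr-HP and Pr-LP (log2 1.44, or 0.69 with the floor at the 40th percentile). Its probe set 102955_at read 247 units in Pr-HP, against 144 in C4-HP, 146 in C4-LP and 90.7 in Pr-LP. By contrast, 101805_f_at read 339 units in Pr-HP, against 304 in C4-HP, 313 in C4-LP and 329 in Pr-LP. The signal of Nfil3 therefore depended on the probe set.

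**Figure D4:**
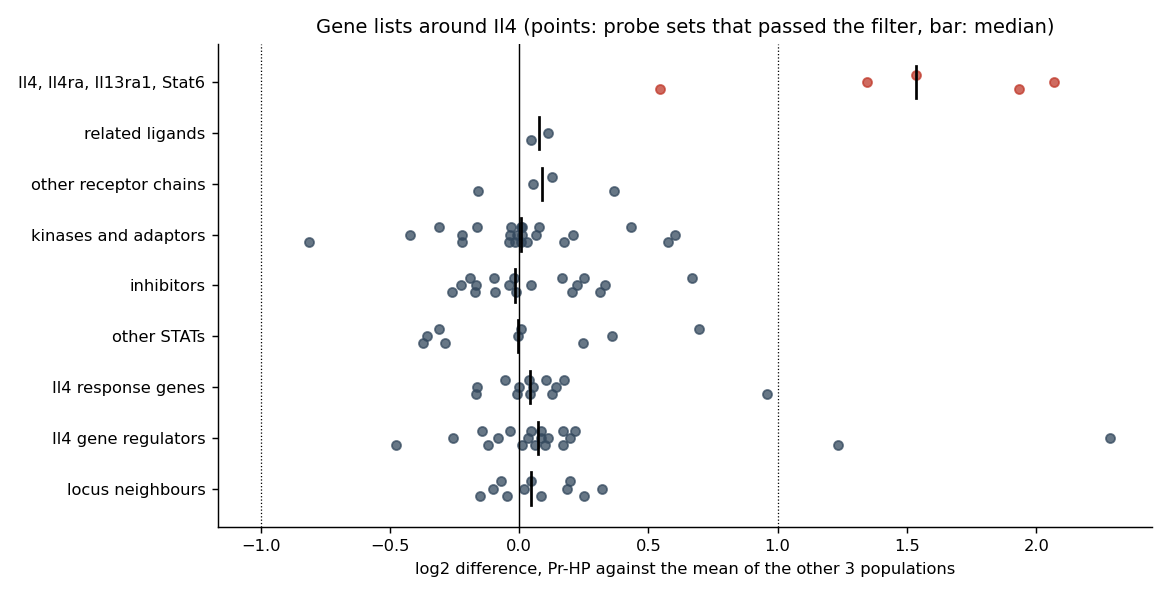
log2 difference between Pr-HP and the mean of the other 3 populations for gene lists around Il4, 1 point per probe set that passed the filter, with the median as a bar and 2-fold as dotted lines. The lists other than the top row have medians between -0.02 and 0.09, and the 2 points beyond 2-fold outside the top row are both Maf.

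Among genes that regulate Il4 transcription in T cells, 1 of 11 tested genes, Maf, was past 2-fold higher in Pr-HP. Maf encodes c-Maf, a basic leucine zipper factor that activates Il4 in T helper cells and binds sites like those marked above. On chip B, 115390_at read 286 units in Pr-HP, against 25.5 in C4-HP, 24.0 in C4-LP and 25.1 in Pr-LP. On chip C, 130990_at read 68.4 units in Pr-HP, against 19.4 in C4-HP, 18.5 in C4-LP and 21.9 in Pr-LP. The 3 other populations were below the floor in both, so Pr-HP was at least 4.88-fold and at least 2.35-fold higher, and here too a probe set with this pattern had to be past 2-fold to pass the filter. With the floor at the 40th percentile the log2 difference was 1.23 for 115390_at and 0.04 for 130990_at. The other Maf probe sets were nearly level, with 92354_at at 104 units in Pr-HP and 82.6 to 91.2 in the others and 111115_at at 105 in Pr-HP and 83.6 to 93.3 in the others. Gata3, the factor that directs T helper cells to make Il4, differed from the mean of the other 3 by log2 0.06 in its tested probe set and was below the floor in the remaining ones. That 1 population is high in both Il4 and Maf is a statement on 1 culture, and no link between them was tested.

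**Figure D5:**
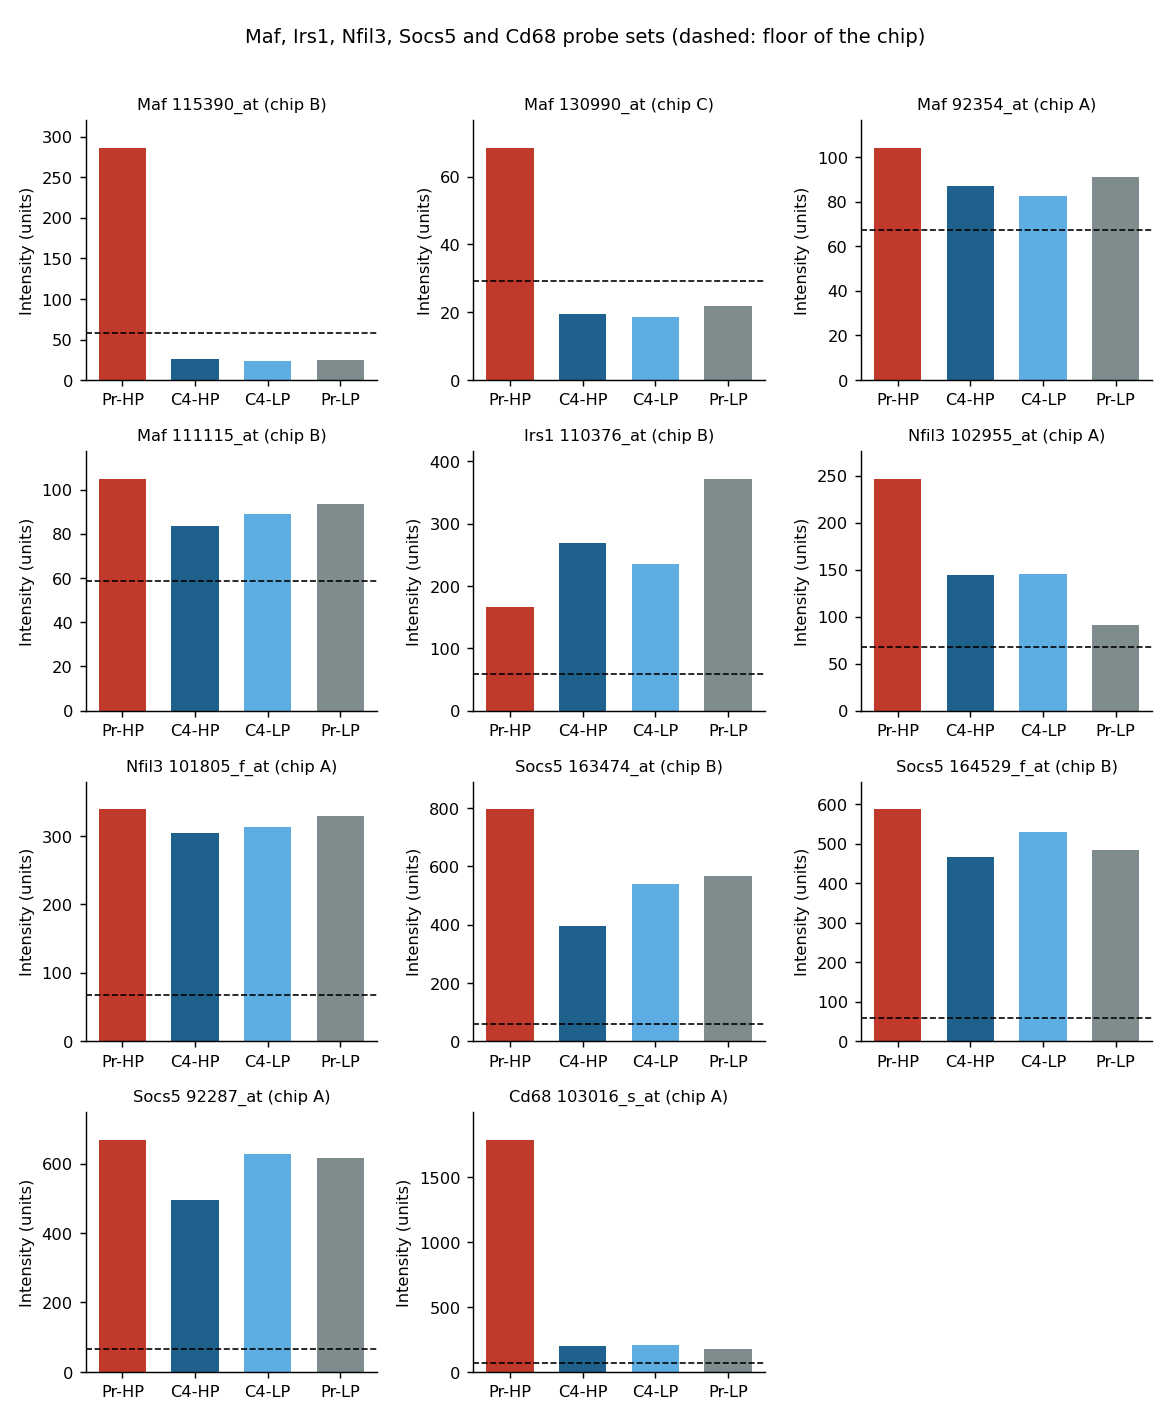
Intensity (units, linear axis from 0) of 11 probe sets of Maf, Irs1, Nfil3, Socs5 and Cd68 in Pr-HP, C4-HP, C4-LP and Pr-LP, 1 array per bar, with the floor of the chip as a dashed line. Of the 4 Maf probe sets, 115390_at and 130990_at exceed the floor in Pr-HP alone.

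Blood cell markers were examined because Il4 is a product of such cells. Ptprc, the CD45 antigen of all white blood cells, was below the floor in all 4 populations by its 3 probe sets, at 17.8 to 33.0 units in Pr-HP and 16.8 to 35.6 in the others. Of the T cell markers 0 of 4 tested genes were past 2-fold in any comparison, and the intensities of 16 probe sets summed to 3199 units in Pr-HP, against 3398 in C4-HP, 3347 in C4-LP and 3653 in Pr-LP. Cd3g and Cd8a were below the floor throughout, and 7 of the 16 probe sets were. Others were above it in every population, among them Cd3e (102971_at) at 314 units in Pr-HP and 326 to 333 in the others, and Cd4 at 342 in Pr-HP and 375 to 387 in the others. Of the mast cell and basophil markers 0 of 4 tested genes were past 2-fold, and 19 probe sets summed to 3162 units in Pr-HP, against 3295 in C4-HP, 3287 in C4-LP and 3370 in Pr-LP. Fcer1a, Mcpt4 and Mcpt2 were below the floor throughout, and 6 of the 19 probe sets were. Others were above it in every population, among them Tpsb2 (93622_at) at 959 units in Pr-HP and 929 to 1003 in the others, and Ms4a2 (135375_at) at 408 in Pr-HP and 391 to 473 in the others.

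The macrophage list held 1 of 4 tested genes past 2-fold higher in Pr-HP, and 19 probe sets summed to 3715 units in Pr-HP, against 2119 in C4-HP, 2102 in C4-LP and 2229 in Pr-LP. That gene was Cd68, a lysosomal glycoprotein. Its probe set 103016_s_at read 1785 units in Pr-HP, against 196 in C4-HP, 210 in C4-LP and 177 in Pr-LP. The higher sum of Pr-HP was carried by this probe set. The other tested genes lay within the range of the other populations. Cd14 read 643 units in Pr-HP and 634 to 692 in the others. Mpeg1 (99071_at) read 282 and 278 to 327, and Fcgr1 (166960_f_at) 166 and 163 to 184. The second Cd68 probe set was below the floor in all 4 populations, as were Lyz2 and the Adgre1 probe set 161377_at. The part of Cd68-expressing cells in the Il4 signal was not tested. The B cell, fibroblast and endothelial lists held 0 genes past 2-fold in any comparison. Of the β-cell markers, 12 of 12 measured genes passed the filter. Ins1 was listed but had no probe set with that symbol alone. The 18 probe sets summed to 39803 units in Pr-HP, against 42011 in C4-HP, 44952 in C4-LP and 43254 in Pr-LP. Ins2 (100150_f_at) read 15526 units in Pr-HP, against 14920 in C4-HP, 15461 in C4-LP and 14771 in Pr-LP. Saturation at this level was not tested. Between Pr-HP and the mean of the other 3, Pcsk1, a prohormone convertase, was higher (log2 1.08). The transcription factor Neurod1 (92717_at) and the potassium channel subunit Kcnj11 (166807_at) were lower, each by log2 -1.02. Their other probe sets were within 2-fold, Neurod1 163624_i_at at -0.87 and Kcnj11 98787_at at -0.60. The glucose transporter Slc2a2 (103357_at) was highest in C4-HP. It read 1754 units there, against 499 in Pr-HP, 464 in C4-LP and 478 in Pr-LP.

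The probe sets of chip A whose pattern over the 4 populations lay closest to that of Il4 92286_g_at belonged to Sh3bgrl2, Igfbpl1, Adarb1, Fgfr2 and Lcp2. Likeness was the Euclidean distance between floored log2 values centred on their mean, over 4 populations and 7086 probe sets, and these distances ranged from 0.285 to 0.392. Lcp2, an adaptor of T cell and mast cell receptor signalling, read 206 units in Pr-HP (102957_at), against 20.8 in C4-HP, 15.8 in C4-LP and 17.3 in Pr-LP. Adarb1, an RNA editing enzyme, read 616 units in Pr-HP (161436_s_at), against 119 in C4-HP, 114 in C4-LP and 138 in Pr-LP. For Il13ra1 135177_at the closest of 5093 probe sets of chip C lay at 0.791 to 0.886, and belonged to Sox11, Sgk3, Plk5, Tcim and Prr5l. Outside Pr-HP, all values of Il4 92286_g_at were raised to the floor and none of Il13ra1 135177_at was. The distances of the Il4 and Il13ra1 neighbours are therefore not comparable. Sgk3, a kinase related to Akt, read 1041 units in Pr-HP (167292_f_at), against 654 in C4-HP, 374 in C4-LP and 465 in Pr-LP, in the same order of populations as Il13ra1.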

How the data were processed

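Intensities of 12 arrays (4 MIN6 populations on Affymetrix U74 version 2 chips A, B and C) were used as deposited by the authors, on a linear scale. The methods name GeneChip 5.1. How the arrays were normalized and the probes summarised is not given in the sources consulted. Probe sets were named from the platform annotation: 29131 of 36701 had 1 symbol, 724 several and 6846 none. Chips were analysed separately in Python 3.11.15 (pandas 2.3.3, numpy 2.4.6). A floor was set at the 20th percentile of each chip, and differences are log2 ratios of arithmetic means. With 1 array per population and chip no test was made, and called means past 2-fold. The members and gene lists were chosen with earlier results of these data known. Named genes are all members, the Il4 and other mouse cytokine controls, up to 5 genes per list and comparison past 2-fold, and the 5 nearest patterns of Il4 and Il13ra1. Other genes are named as defining members of a list, after their values were seen. The study's own responder grouping gave the comparison of Pr-HP with the mean of the other 3. Alternatives were other floors, filters and folds, quantile normalization, 2%-trimmed mean scaling, the mean of log2 values, and each of the other 3 populations left out. Sequences and positions come from RefSeq tables of GRCm38.p6.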

Additional observations from a re-analysis of the deposited data

Results flagged for a closer look

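Stat6 (94331_at) moved in opposite directions with passage in the 2 lines, at log2 0.22 between Pr-HP and Pr-LP and at log2 -0.43 between C4-HP and C4-LP. Stat3, which is not a member, did so too, at 0.55 and -0.37 (99100_at) and at 0.22 and -0.18 (99099_at). Each difference rests on 1 array per population, and the difference between the lines was not tested. The technical spread was 0.111 and 0.053 in these comparisons. Over the 44 control probe sets the log2 differences between Pr-HP and Pr-LP ran from -1.74 to 0.89. Those between C4-HP and C4-LP ran from -0.55 to 0.41. The controls include mouse genes that differed alike on all 3 chips. The transferrin receptor (3′ probe set) was at -0.77, -0.83 and -0.88 in Pr-HP against the mean of the other 3. Both Stat6 values lie within the control range, which therefore cannot decide whether they exceed noise. With the floor at the 40th percentile the Stat6 difference between C4-HP and C4-LP was 0, since both values are then below the floor.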

How the results depend on the processing

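The direction of each difference between Pr-HP and the mean of the other 3 populations held in the tested probe sets of the 4 genes and in the Il4 controls under all alternatives. The size for Il4 depended on the floor, while that for Il4ra 102021_at was the same under every floor and that for Il13ra1 135177_at moved most when a population was left out. With the floor at the 10th percentile, the log2 difference was 2.22 for Il4 92283_s_at, 2.55 for 92286_g_at, and 2.17 and 2.77 for the Il4 control on chips A and B. With the floor at 1.0 unit these were 3.31, 2.55, 2.63 and 3.07. With the floor at the 40th percentile they were 0.16, 0.89, 0.11 and 0.85, the control on chip C gave 2.08, Stat6 0.31 and Il13ra1 135177_at 1.75. The 2 Il4 probe sets were then within 2-fold, since the floor itself rises, and the member probe sets past 2-fold fell to 2 against the mean, 2 between Pr-HP and Pr-LP, 0 between C4-HP and C4-LP, and 2 (lower) between C4-HP and Pr-HP. Without Pr-LP, Stat6 was at 0.75. Without C4-LP, Il4ra 102021_at was at 1.46 and Il13ra1 135177_at at 1.69. Without C4-HP, Stat6 was at 0.37, Il13ra1 135177_at at 2.23 and the Il4 control on chip C at 3.14. At 3-fold, 86 probe sets of all tested were past the fold higher and 81 lower in Pr-HP against the mean (2 members higher), 144 and 109 against Pr-LP (2 members higher), 23 and 57 in C4-HP against C4-LP (0 members), 112 and 41 in C4-LP against Pr-LP, and 71 and 120 in C4-HP against Pr-HP (1 member lower). Quantile normalization, 2%-trimmed mean scaling, the mean of log2 values and the filters moved none of these values beyond the technical spread and none of these counts by over 1.5 times, but Socs5 163474_at came to log2 -0.99 under both scalings in C4-HP against Pr-HP, just within 2-fold. No paired analysis was possible because each population has 1 array per chip. The number of arrays limits every value, and signals near background, those of Il4 outside Pr-HP among them, have only an upper bound.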
